A study of Homo sapiens with 48 samples.

Results

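A pair of SW480 pools that differed in the hairpin they carried were compared before either hairpin was switched on. SW480 is an established human colorectal cancer (CRC) line with mutant APC. One pool carried shEIF2B4, a doxycycline (DOX)-inducible shRNA against the mRNA of eIF2Bδ, and the other carried shCTRL, an inducible hairpin with no target. Both hairpins were delivered with the lentiviral LT3-GEPIR vector, and the cells were selected with puromycin. The libraries used are those of cells kept in DMSO without DOX (-DOX) in 4 replicates done in separate weeks, with 8 libraries of total cytoplasmic RNA and 8 of ribosome-protected fragments (RPFs), 16 of the 48 libraries of the series. Members were taken from the labels and from no measured value. The other libraries come from the same pools after 5 days of 1 µg/ml DOX (+DOX) and from a pool with shEIF2B1, against eIF2Bα, with and without DOX. Each hairpin is represented by 1 pool, so traces of hairpin made without DOX and any other difference between the pools cannot be told apart by the comparison alone.

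eIF2B is the exchange factor that reloads eIF2 with GTP, and eIF2 brings the initiator tRNA to the ribosome. Its δ subunit, encoded by EIF2B4, belongs to the regulatory part of the complex that senses phosphorylated eIF2α. When eIF2B activity is limiting, most initiation slows while ATF4 is translated more, and ATF4 with its targets makes up the transcriptional arm of the integrated stress response (ISR). Inducible promoters of this type can leak, and a leaking hairpin would lower its target and could start this response before induction.

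Values are the regularized log2 values that the authors made with DESeq2, 1 value per gene and library. The median over all genes lay between 7.85 and 7.86 in the shEIF2B4 -DOX libraries of total RNA and between 7.89 and 7.92 in those of shCTRL. In RPFs these medians were 6.84 to 6.94 and 6.98 to 7.03. Each library was therefore centred on its own median before testing, and a difference is always shEIF2B4 minus shCTRL on the log2 scale. Whether the shEIF2B4 columns were transformed together with those of shCTRL is not stated in the sources used here. Read counts and depth cannot be given from these values, and the regularized scale shrinks differences of genes with few reads. Differences were tested by limma with the week as a block, and a gene counted as called where its two-sided p, adjusted by Benjamini-Hochberg over the table, was under 0.1. The tables hold 11947 genes in total RNA and 11145 in RPFs. Of the listed markers of colon epithelium, 10 were in the total RNA table, EPCAM, CDH1 and KRT8 among them. Of the markers of fibroblasts, endothelium, blood and nerve, only CD68 was in it, and CD68 did not differ (0.06, adjusted p = 0.78 by limma). PECAM1, PTPRC and COL1A1 were not among the genes of either table.

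EIF2B4 itself was somewhat lower in the uninduced shEIF2B4 pool, and by less than after induction. EIF2B4 (ENSG00000115211) lies on the minus strand at chr2:27364352-27370486 of GRCh38 in GENCODE v29. In total RNA its log2 level in weeks 1 to 4 was 7.18, 7.40, 7.54 and 7.60 in shCTRL and 6.91, 7.23, 7.46 and 7.29 in shEIF2B4. The shEIF2B4 library was the lower one in each of the 4 weeks, although the groups overlapped. The difference of -0.21 (SE 0.069, 95% interval -0.36 to -0.05, n = 4 weeks) amounted to 0.87 times the shCTRL level and did not pass the threshold over all genes (adjusted p = 0.24 by limma, with an unadjusted p of 0.015).

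In RPFs EIF2B4 stood at 7.80, 8.09, 8.44 and 8.45 in shCTRL and at 7.72, 7.84, 8.16 and 7.75 in shEIF2B4. Again each week gave a lower value in shEIF2B4 and the groups overlapped. The difference was -0.33 (SE 0.13, 95% interval -0.61 to -0.04), with an adjusted p of 0.19 by limma. Week 1 had the smallest difference (-0.08) and week 4 the largest (-0.69). Without week 1 the difference was -0.41 and passed the threshold (adjusted p = 0.017 by limma), as did 4699 of the 11145 genes in that fit. Without week 4 it was -0.20. The -0.42 of the values as deposited also passed (adjusted p = 0.082 by limma), on a scale where all shEIF2B4 columns lie lower and 1554 genes were called. After induction the difference between the same pools was -0.71 in total RNA (adjusted p = 2.2e-05) and -0.78 in RPFs (adjusted p = 4.5e-05). The growth of the difference with induction, -0.51 in total RNA, passed the threshold (adjusted p = 0.054), whereas -0.45 in RPFs did not (adjusted p = 0.21). Against the uninduced shEIF2B1 pool, EIF2B4 differed by -0.31 (adjusted p = 0.11) and -0.33 (adjusted p = 0.82).

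**Figure D1:**
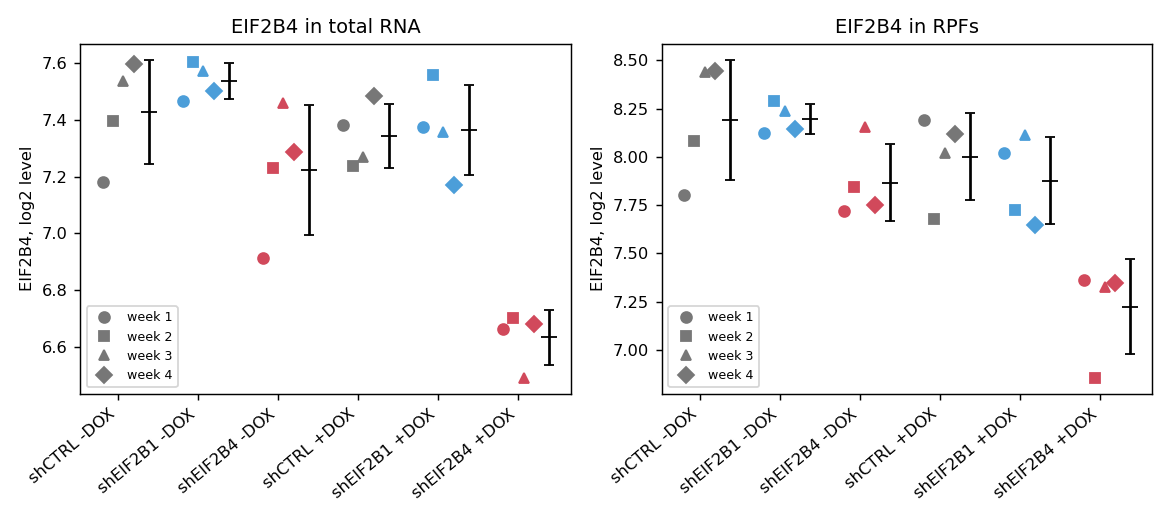
Log2 level of EIF2B4 in each library after median centring, in total RNA (left) and RPFs (right), for 6 groups of pool and treatment, with the symbol giving the week and the bar the mean ± SD of 4 libraries. The uninduced shEIF2B4 libraries average 7.22 in total RNA, below the 7.43 of uninduced shCTRL and above the 6.63 of induced shEIF2B4, and the y axes do not start at 0.

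The remaining subunits of eIF2B did not pass the test in either table. EIF2B1, which encodes eIF2Bα, gave 0.19 in total RNA (adjusted p = 0.25) and 0.02 in RPFs (adjusted p = 0.91). Differences of EIF2B2, EIF2B3 and EIF2B5 lay between 0.01 and 0.13 in total RNA and between -0.04 and 0.24 in RPFs. Of 16 measured genes of eIF2, its kinases and its phosphatase 0 were called by limma in either table, and at an unadjusted p under 0.05 none differed in total RNA and 2 were higher in RPFs.

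Genes of the ISR showed no call before induction. DDIT3, which encodes the stress factor CHOP, had log2 levels of 9.37, 9.52, 9.54 and 9.54 in shCTRL and of 9.38, 9.37, 9.45 and 9.54 in shEIF2B4 in total RNA. These groups overlapped almost fully, and the difference was -0.06 (95% interval -0.19 to 0.08, adjusted p = 0.72), against 1.08 after induction (adjusted p = 1.2e-07). ATF4 differed by 0.06 in total RNA (adjusted p = 0.70) and -0.08 in RPFs (adjusted p = 0.73), where it was higher by 0.70 after induction (adjusted p = 0.00025). PPP1R15A, the regulatory subunit of the eIF2α phosphatase, gave 0.11 and 0.06 and was not called.

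Across the list of ATF4 and its targets, 0 of 39 genes were called in total RNA by limma, and 3 were higher and 2 lower at an unadjusted p under 0.05. That unadjusted threshold was passed by 7.83% of all genes in the higher and 5.72% in the lower direction. The median over the list was 0.03, beside 0.00 over all genes, and after induction 28 of the 39 genes were called higher, with a median of 0.43. In RPFs 0 of 38 were called, with 1 higher and 3 lower at an unadjusted p under 0.05, for which the shares of all genes were 10.1% and 11.6%. The median was -0.12 in RPFs, beside -0.03 over all genes, and after induction 28 were called higher with a median of 0.50. Of 20 aminoacyl-tRNA synthetases, another class of ATF4 targets, 0 were called in total RNA by limma and 1 was lower at an unadjusted p under 0.05. Further genes that the study singled out were not called either, with ATF3 at 0.01 and 0.18, HNRNPA3 at -0.07 and 0.18, and HNRNPD at -0.29 (adjusted p = 0.16) and 0.16.

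A second view of leak came from genes chosen in libraries that the comparison does not use. The 100 genes with the largest rises and the 100 with the largest falls on induction were taken from the shEIF2B1 pool. These changes are +DOX against -DOX within that pool, with no correction for the effect of DOX in shCTRL. In total RNA the 100 rising genes had a median change of 1.10 in shEIF2B1 and rose by a median of 1.09 on induction of shEIF2B4. Between the uninduced pools their median difference was -0.0027, and 50 of the 100 were above 0, where 51.5% of all genes were. After induction the median difference between the pools was 0.77. The 100 falling genes had a median of -0.03 before and -0.21 after induction.

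Single members of this list did differ before induction. Of the 100 rising genes 8 were called higher and 2 lower in uninduced shEIF2B4, beside 1.27% and 0.753% of all genes. The 8 higher genes were ESRP1, SLC26A4, MAL2, PLEKHG1, CLDN7, SGPP2, AREG and a gene model with a clone name, and they are named after their values were seen. SLC26A4, an anion exchanger, stood at 5.51, 5.39, 5.56 and 5.67 in shCTRL and at 6.07, 6.05, 5.76 and 5.84 in shEIF2B4, without overlap (0.40, SE 0.091, adjusted p = 0.085), and at 1.99 above shCTRL after induction. The 2 lower genes, SMIM14 (-0.33) and ABCA1 (-0.52), went against their rise on induction of shEIF2B1. Of the 100 falling genes 1, TMEM107, was called, and it was higher (0.32).

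In RPFs the same choice gave a different picture, which moved with the base composition described below. The 100 genes that rose most in shEIF2B1 had a median difference of -0.16 between the uninduced pools and the 100 that fell most had one of 0.24, opposite to their direction on induction. By week the medians of the rising genes were 0.15, -0.20, -0.47 and -0.21, so week 1 stood apart. None of these 200 genes was called by limma, although 4 rising genes were higher and 29 lower, and 27 falling genes were higher and 0 lower, at an unadjusted p under 0.05. After a trend over coding sequence (CDS) length and GC was removed, with the lists drawn from genes with a matched CDS, the medians were -0.04 and 0.05. Of the 100 rising genes 5 were then called higher (CLDN7, NOS3, ESRP1, WFDC2 and ENTPD8) and 4 lower (ABCG1, SLC16A4, ABCA1 and EEF1A2), beside 0.948% and 0.753% of all genes. Of the 100 falling genes 3 were called higher (RPL38, SNRPE and RBIS) and 0 lower. These genes are named after their values were seen.

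Beyond EIF2B4 and the ISR, the total RNA of the uninduced pools differed in a limited set of genes, among them several genes of epithelial cells that were higher in shEIF2B4. limma called 242 of 11947 genes (2.03%), of which 152 were higher (1.27%) and 90 lower (0.753%). All 242 had the same sign in the 4 weeks, as did 22.8% of all genes. The differences were small, with a median size of 0.32 among the called genes and 0.07 among all genes, and 17 higher and 6 lower genes differed by at least 0.5. The number of calls depended on single weeks, with 25 calls without week 1, 7 without week 2, 493 without week 3 and 56 without week 4. Calls also clustered at low levels, since 159 of the 242 were in the lowest of 4 equal groups of genes by mean level, where 5.32% were called, against 0.837% to 1.004% in the other groups.

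MAL2, a membrane protein of apical transport in epithelial cells, was the epithelial gene with the largest difference. Its log2 level in total RNA was 7.67, 7.13, 7.22 and 6.75 in shCTRL and 8.60, 8.43, 7.67 and 7.98 in shEIF2B4. The groups only just separated, with the week 3 library of shEIF2B4 level with the week 1 library of shCTRL at 2 decimals. The difference was 0.98 (SE 0.12, adjusted p = 0.016), that is 1.97 times the shCTRL level, and it was 0.87 and not called without week 2. CLDN7 (ENSG00000181885), a tight junction claudin, stood at 6.03, 6.01, 5.70 and 5.51 in shCTRL and at 6.68, 6.56, 6.29 and 6.12 in shEIF2B4. Every shEIF2B4 library lay above every shCTRL library, and the difference was 0.60 (SE 0.063, adjusted p = 0.0072), between 0.54 and 0.64 in each week.

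EPCAM (ENSG00000119888, chr2:47345158-47387601, plus strand), the epithelial cell adhesion molecule, was at 9.36, 9.33, 9.13 and 9.35 in shCTRL and at 10.02, 9.95, 9.63 and 9.83 in shEIF2B4, without overlap. It was 0.57 higher (SE 0.061, adjusted p = 0.0076, 1.48 times), and 0.55 and not called without week 2. CDH1, E-cadherin, was low in these cells, at 3.92, 4.05, 3.90 and 4.01 against 4.53, 4.25, 4.43 and 4.27, again without overlap (0.40, SE 0.073, adjusted p = 0.041). TSPAN13, a tetraspanin, was higher by 0.65 (adjusted p = 0.021), with overlapping groups because weeks differed within each pool. CDH1 and TSPAN13 were no longer called without week 1 (0.33 and 0.56) or without week 2 (0.47 and 0.63).

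Some further genes of epithelial cells went the same way and are named after their values were seen. They include the epithelial splicing regulators ESRP1 (0.42) and ESRP2 (0.29), the cadherin CDH3 (0.42), the membrane serine protease ST14 (0.43) and SPINT2 (0.32), an inhibitor of such proteases, as well as BSPRY (0.50), the actin bundler ESPN (0.43), KDF1 (0.31), MAPK13 (0.45), ELOVL7 (0.46) and B3GNT3 (0.27), all called by limma at adjusted p from 0.012 to 0.087. SPINT1, the partner of SPINT2, missed the threshold (0.28, adjusted p = 0.10).

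On the list of colon epithelium markers some genes were called and others not. Of its 10 measured genes 3 were called higher (EPCAM, CDH1 and CLDN7) and 0 lower, beside 1.27% and 0.753% of all genes, with a median of 0.22. At an unadjusted p under 0.05, 6 were higher and 1 lower, beside 7.83% and 5.72%. The lower one was CDX2, an intestinal transcription factor, at -0.19 (adjusted p = 0.27). CLDN3 (-0.06), CLDN4 (-0.04), ELF3 (0.14) and the keratins KRT8, KRT18 and KRT19 (0.20 to 0.25) were not called. Of 16 mesenchymal genes 0 were called by limma, with a median of 0.01, and 2 were higher and 4 lower at an unadjusted p under 0.05, against the same 7.83% and 5.72%. ZEB1, a repressor of epithelial genes, differed by -0.12 (adjusted p = 0.44), VIM by -0.09 and SNAI2 by 0.07. After induction ZEB1 was 0.47 lower in the shEIF2B4 pool.

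The promoters of 3 of the higher genes are printed because a short run of letters was frequent among these genes. The letters are CAGGTG and its reverse complement CACCTG, so a search for both covers both strands. ZEB and SNAI repressors are known to bind E-boxes of this type in epithelial genes. Sequences are those of RefSeq on GRCh38.p14, from 250 bases before to 50 bases after the transcription start, in the direction of the gene, and capitals mark the matches. The CLDN7 window is chr17:7262429-7262728 (minus strand, 5 matches), that of MAPK13 is chr6:36130263-36130562 (plus strand, 3 matches) and that of TSPAN13 is chr7:16753505-16753804 (plus strand, 1 match). Where a gene had several promoter entries, the one with the most matches was printed. The CLDN7 and MAPK13 windows lie inside the annotated genes (chr17:7259903-7263983 and chr6:36127809-36144524), downstream of the outermost start of each. The TSPAN13 window begins just upstream of its annotated gene (chr7:16753535-16784536) and lies mostly inside it, so its transcription start is also downstream of the outermost one.
CLDN7: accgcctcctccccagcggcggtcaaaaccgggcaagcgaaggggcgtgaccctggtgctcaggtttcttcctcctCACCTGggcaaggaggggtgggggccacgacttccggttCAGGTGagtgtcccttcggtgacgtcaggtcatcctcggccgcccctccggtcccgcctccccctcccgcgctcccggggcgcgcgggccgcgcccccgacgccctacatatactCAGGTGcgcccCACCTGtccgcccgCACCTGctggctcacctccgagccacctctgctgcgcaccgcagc
MAPK13: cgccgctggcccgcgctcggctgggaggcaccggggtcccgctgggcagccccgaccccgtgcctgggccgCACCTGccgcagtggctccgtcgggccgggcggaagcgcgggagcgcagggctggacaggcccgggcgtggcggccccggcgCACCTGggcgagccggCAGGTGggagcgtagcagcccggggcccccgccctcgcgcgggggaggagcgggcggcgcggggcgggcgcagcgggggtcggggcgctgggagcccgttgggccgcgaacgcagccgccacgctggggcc
TSPAN13: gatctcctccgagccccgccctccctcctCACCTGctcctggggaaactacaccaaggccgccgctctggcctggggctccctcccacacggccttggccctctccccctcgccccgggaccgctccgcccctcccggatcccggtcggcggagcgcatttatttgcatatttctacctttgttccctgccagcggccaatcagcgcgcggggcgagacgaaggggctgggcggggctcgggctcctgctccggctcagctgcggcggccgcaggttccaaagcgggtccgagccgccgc

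Of the 152 higher genes 109 had a promoter in the RefSeq table, and 51 of them (46.8%) held at least 1 match. The share was 16 of 65 (24.6%) for the lower genes, 2321 of 9685 (23.96%) for all measured genes and 24.1% for all 27305 gene symbols with a RefSeq promoter. A gene with several promoter entries was counted by the entry with the most matches. Over all 35116 single entries the share was 20.6%. At least 2 matches were found in 20.2% of the higher, 3.08% of the lower and 3.57% of all measured genes. The higher genes also differed in composition and level, with a median CDS GC of 57.3% beside 52.0% for all genes. Among measured genes the share with a match was 25.6% in the highest of 5 equal groups by CDS GC and 28.8% in the lowest of 4 by level. The matches are a description of these windows, and no binding was measured.

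Genes outside the epithelial group were also higher. NT5DC4 had the smallest adjusted p, 0.00056, at 3.41, 3.41, 3.61 and 3.53 in shCTRL and 4.19, 4.09, 4.35 and 4.21 in shEIF2B4 (0.72, SE 0.048). NOS3, endothelial nitric oxide synthase, stood at 3.30, 3.21, 3.25 and 3.19 against 3.95, 4.03, 3.81 and 3.91 (0.69, SE 0.053, adjusted p = 0.0011). Both genes separated fully but lay near the bottom of the scale, where the lowest mean level was 3.20. DKK4, a secreted Wnt antagonist and Wnt target, was the 1 gene called among 24 Wnt targets (0.58, SE 0.068, adjusted p = 0.012). After induction the DKK4 difference was 0.06 (adjusted p = 0.61), and the change of -0.51 was called (adjusted p = 0.043). ESRP2 likewise gave 0.02 after induction (adjusted p = 0.85). COBLL1 was 0.56 higher (adjusted p = 0.013) and 0.61 higher after induction. DKK4 (0.58) and COBLL1 (0.52) were no longer called without week 2, both at an adjusted p of 0.13 by limma.

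Of the lower genes, ABCA1, the cholesterol exporter, was among the clearest. Its log2 level was 4.23, 4.31, 4.35 and 4.19 in shCTRL and 3.66, 3.70, 3.88 and 3.76 in shEIF2B4, with a gap between the groups (-0.52, SE 0.052, adjusted p = 0.0061). SPTLC3, a subunit of serine palmitoyltransferase, was lower without overlap of the groups (-0.55, SE 0.073, adjusted p = 0.019). NECTIN3, a cell adhesion molecule, differed by -0.46 (adjusted p = 0.021) and ESM1, a secreted proteoglycan, by -0.45 (adjusted p = 0.021), both without overlap. NECTIN3, ESM1 and SPTLC3 were no longer called without week 1 (-0.43, -0.43 and -0.52) or without week 2 (-0.49, -0.46 and -0.56), at adjusted p from 0.11 to 0.15 by limma. FAM169A (-0.48), TICAM2 (-0.45), KBTBD3 (-0.42) and PALM (-0.29), a membrane-anchored protein, were called as well.

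Several of the largest differences fell on genes with near-identical copies, for which reads may have been split between copies, and they are uncertain. RGPD6 was higher by 1.41 and RGPD2 by 0.84, while RGPD8 of the same family was lower (-0.997). RP11-205M20.8 (-0.82), CBSL (-0.69, a copy of CBS) and PSG1 (-0.65, a pregnancy-specific glycoprotein of a large family) belong here too.

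The other lists held few calls, to be read against 1.27% of all genes called higher and 0.753% called lower. Of 51 large subunit ribosomal protein genes 2 were higher, RPL28 (0.34) and RPL13A (0.26), of 32 small subunit genes 1, and of 77 mitochondrial ones 1, MRPL12 (0.26). GPI (0.28) was the 1 call of 24 glycolysis genes and DDX58 (0.50), which encodes the RNA sensor RIG-I, the 1 call of 29 interferon-stimulated genes. Of 415 genes named ZNF 5 were lower and 0 higher, among them ZNF81 (-0.37) and ZNF485 (-0.34). Of 20 integrins, laminins and collagens 1 was higher and 1, ITGA1 (-0.25), lower. Of 58 clustered histone genes 3 were called higher, H4C1 (0.32), H4C8 (0.28) and H2AC13 (0.26), 26 were higher at an unadjusted p under 0.05, beside 7.83% of all genes, and the median was 0.14. With a trend over CDS length and GC removed, 0 histone genes were called by limma, 15 were higher and 1 lower at an unadjusted p under 0.05, and the median was 0.10. After induction the histone median was -0.17 with 24 called lower. No call fell on 40 cell cycle, 19 p53 target, 16 small RNA machinery, 15 antigen presentation, 14 NF-κB, 25 immediate early, 20 endoplasmic reticulum chaperone, 19 heat shock, 24 cholesterol synthesis, 18 NRF2, 5 metallothionein, 24 hnRNP, 32 HOX, 81 oxidative phosphorylation genes or the 1 cancer-testis antigen measured.

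Most of the uninduced differences were met again after induction, in libraries that the first comparison does not share. Of the 152 higher genes 135 were also above shCTRL with DOX, and 100 (65.8%) were called higher, beside 13.2% of all genes. Of the 90 lower genes 83 were below shCTRL, and 66 (73.3%) were called lower, beside 15.3% of all genes. The median difference of the higher genes was 0.33 without and 0.28 with DOX, and that of the lower genes -0.31 and -0.28, while the median of all genes with DOX was -0.01. Only 2 genes, both lower before induction, were called in the opposite direction. The shared pools and the unstated way in which the columns were transformed are common to both comparisons.

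For a small group the difference grew with induction. The change was called for 550 of all genes (4.60%), and among the 152 higher genes it was a growth for 21 and a decrease for 6, while among the 90 lower genes it was a growth for 0 and a decrease for 2. CLDN7 went from 0.60 to 1.73 (change 1.14, adjusted p = 1.1e-05), MAL2 from 0.98 to 2.28 (1.30, adjusted p = 0.0010) and ESRP1 from 0.42 to 2.24 (1.82, adjusted p = 9.2e-07). SLC26A4 went from 0.40 to 1.99, NOS3 from 0.69 to 1.42 and CDH1 from 0.40 to 0.94. On induction of shEIF2B1, in libraries with no part in these differences, the same genes rose by 1.03 (CLDN7), 1.13 (MAL2), 1.66 (ESRP1), 1.61 (SLC26A4), 0.55 (NOS3) and 0.53 (CDH1). These rises are not corrected for the effect of DOX in shCTRL. There the mean went from 5.81 to 6.07 for CLDN7, 7.19 to 7.24 for MAL2 and 6.16 to 6.63 for ESRP1. It went from 5.53 to 5.58 for SLC26A4, 3.24 to 3.34 for NOS3 and 3.97 to 4.13 for CDH1. CLDN7, MAL2, ESRP1 and SLC26A4 are on the total RNA list of largest rises in shEIF2B1, so a rise there was a condition of being listed. The genes given here are a selection. NT5DC4, whose difference also grew (change 0.45, adjusted p = 0.010 by limma), averaged 3.44 in shEIF2B1 without DOX and 3.72 with DOX. COBLL1 (-0.06), NECTIN3 (0.02) and PSG1 (-0.05) hardly moved in shEIF2B1. The differences of COBLL1 and NECTIN3 between the pools were 0.56 and -0.46 without DOX and 0.61 and -0.43 with DOX, while that of PSG1 went from -0.65 to -0.99, with an SD of 0.85 over the shCTRL +DOX libraries.

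**Figure D2:**
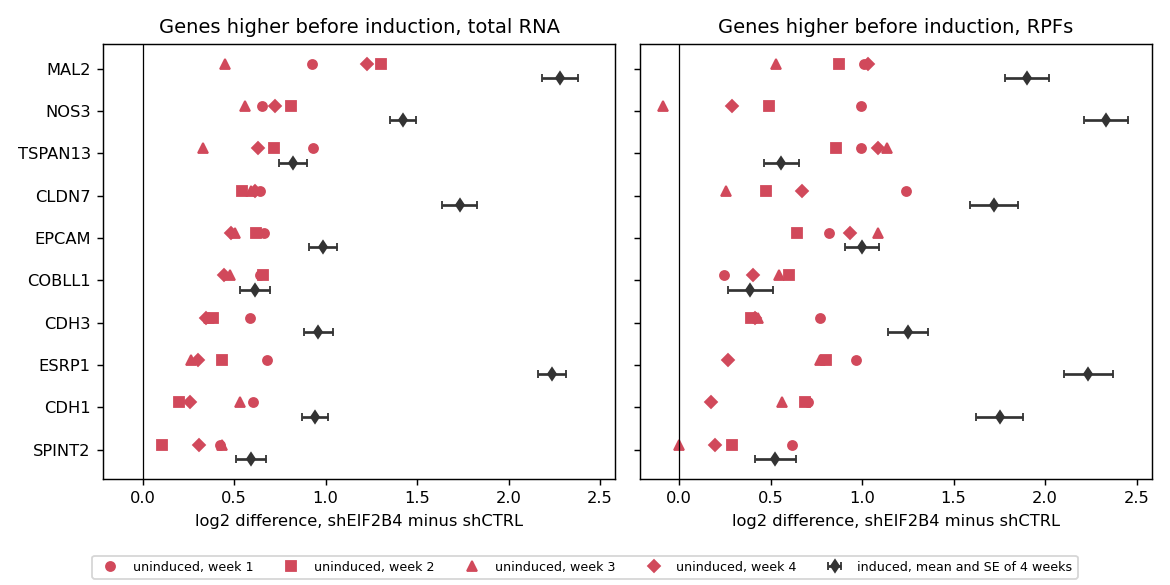
Log2 difference, shEIF2B4 minus shCTRL, of genes higher before induction, in total RNA (left) and RPFs (right), with coloured symbols for the 4 uninduced weeks and a black diamond with its SE for the mean after induction. In total RNA every weekly difference lies above 0, and the induced value of ESRP1 (2.24) and CLDN7 (1.73) lies far to the right of its uninduced weeks while that of COBLL1 (0.61) lies among them.

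**Figure D3:**
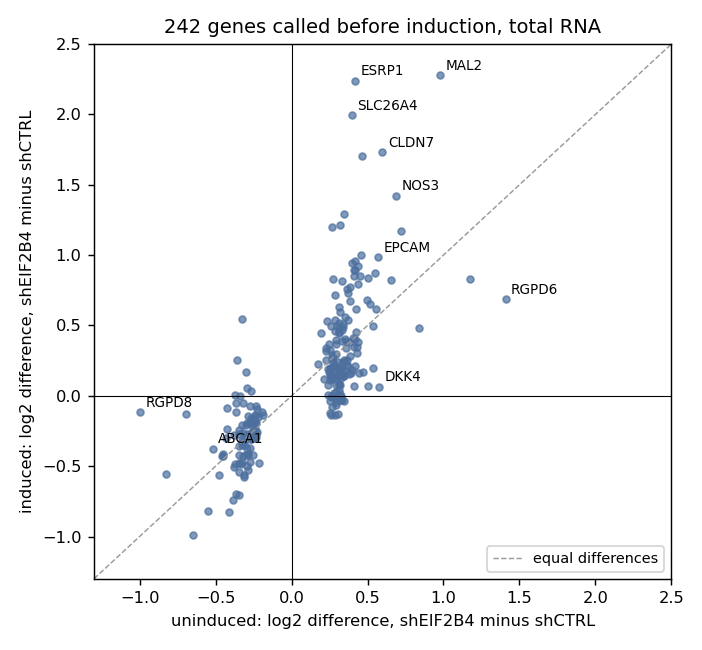
Each point is 1 of the 242 genes called before induction in total RNA, with its uninduced difference on the x axis and its induced difference on the y axis, both log2, and a dashed line where both are equal. Most points keep their side of 0, ESRP1, SLC26A4, CLDN7 and MAL2 lie far above the line, and RGPD6 and RGPD8 lie nearer to 0 after induction.

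The uninduced shEIF2B1 pool gives values to set beside these, though it shares the shCTRL libraries with one comparison and the shEIF2B4 libraries with the other. In total RNA 172 genes (1.44%) were called between shEIF2B1 and shCTRL and 275 (2.30%) between shEIF2B4 and shEIF2B1. MAL2 differed by 0.17 between shEIF2B1 and shCTRL and by 0.80 between shEIF2B4 and shEIF2B1, EPCAM by 0.09 and 0.47, CLDN7 by 0.18 and 0.42, and NOS3 by 0.00 and 0.69, so for these genes the total RNA of the shEIF2B4 pool stood apart from both. DKK4 gave 0.59 and -0.01, PSG1 -0.58 and -0.07 and ESM1 -0.36 and -0.09, so there the shCTRL pool stood apart from both. TSPAN13 was between, at 0.37 and 0.28. In RPFs the picture was another one. EPCAM averaged 10.19 in shCTRL, 10.74 in shEIF2B1 and 11.06 in shEIF2B4, so shEIF2B1 lay between. Its RPF difference was 0.54 between shEIF2B1 and shCTRL (adjusted p = 1.3e-05) and 0.33 between shEIF2B4 and shEIF2B1 (adjusted p = 0.82). The same 2 RPF differences were 0.72 and 0.30 for TSPAN13, 0.52 and 0.36 for LRRC8C, -0.48 and -0.37 for PALM and 0.22 and 0.65 for MAL2. The first was called for TSPAN13, LRRC8C and PALM but not for MAL2, in a comparison where 6255 of all RPF genes (56.1%) were called. The second was called for none of them by limma, where 459 of all RPF genes had an unadjusted p under 0.05.

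In RPFs 17 of 11145 genes (0.153%) were called, 10 higher (0.0897%) and 7 lower (0.0628%). EPCAM stood at 9.98, 10.55, 9.89 and 10.36 in shCTRL and at 10.80, 11.19, 10.98 and 11.30 in shEIF2B4, without overlap (0.87, SE 0.12, adjusted p = 0.029). MAL2 was at 4.19, 3.95, 4.34 and 3.97 against 5.21, 4.82, 4.87 and 5.01, also without overlap (0.86, SE 0.13, adjusted p = 0.036). TSPAN13, at 6.72, 6.92, 6.75 and 6.99 against 7.71, 7.78, 7.89 and 8.07, had the smallest adjusted p (1.02, SE 0.12, adjusted p = 0.021). LRRC8C, a subunit of volume-regulated anion channels, was 0.88 higher and also separated fully. EPCAM (0.95 and 0.85), MAL2 (0.86 and 0.81) and LRRC8C (0.86 and 0.95) were no longer called without week 2 or without week 4, and TSPAN13 (1.00) without week 4. In RPFs PALM was no longer called without week 2 (-0.86), week 3 (-0.67) or week 4 (-1.01). EPCAM was the 1 called gene on any of the lists in RPFs, with medians of -0.09 over 11 colon epithelium genes and -0.25 over 15 mesenchymal genes. These 4 genes and PALM (-0.85 in RPFs) were called in both tables in the same direction. CHURC1-FNTB, a read-through of 2 neighbouring genes whose reads cannot be assigned safely, was called in opposite directions, at -0.29 in total RNA and 0.99 in RPFs.

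Most of the other RPF calls had little counterpart in total RNA. POLR2K, a small subunit shared by the RNA polymerases, had RPF levels of 4.83, 5.46, 5.01 and 6.06 in shCTRL and 5.10, 7.15, 6.12 and 7.71 in shEIF2B4, so its 1.181 came mainly from weeks 2 to 4, and it gave -0.09 in total RNA. PFDN1, a prefoldin subunit, was at 6.20, 6.53, 5.69 and 6.91 against 6.48, 7.89, 7.02 and 8.31 (1.09), with 0.08 in total RNA. TBPL1 (0.76), FNTA (0.75) and HSBP1L1 (0.77) were higher, while TEX19 (-0.91), LBX2 (-0.83), PSG3 (-0.83), the insulin receptor substrate IRS1 (-0.68) and TBC1D10C (-0.64) were lower. In total RNA TEX19 was lower in each week without being called, averaging 5.49 in shCTRL and 5.23 in shEIF2B4. PSG3 had no value in total RNA. After induction 7 of the 10 higher genes were called higher, beside 7.20% of all genes, and 4 of the 7 lower genes were called lower, beside 8.37%. The change of the difference with induction was called for 525 genes in RPFs (4.71%). Of the 17 RPF calls, 16 were also called in the same direction between uninduced shEIF2B1 and the same shCTRL libraries. In that comparison 56.1% of all genes were called. Its median difference was 0.73 for the higher genes, beside 0.87 for shEIF2B4, and -0.48 for the lower genes, beside -0.83. Between uninduced shEIF2B4 and shEIF2B1 0 of the 17 were called.

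The RPF differences of week 1 did not resemble those of the other weeks. Across genes, the differences of week 1 correlated with those of weeks 2, 3 and 4 at r = -0.02, -0.19 and -0.02, whereas those of weeks 2, 3 and 4 correlated with one another at 0.59 to 0.70. Genes within a library are not independent, so these values describe the libraries only. The count of RPF calls moved with it, from 17 to 4699 without week 1, 2 without week 2, 16 without week 3 and 0 without week 4, where 1144 genes had an unadjusted p under 0.05 in limma. It was 0 without the week as a block, where 618 genes had an unadjusted p under 0.05 in limma. Week 3 stood out in another way, since its RPF differences had an SD of 0.48, beside 0.28 to 0.33 in the other weeks. After each group's mean was removed, only in week 3 did the RPF libraries of both pools correlate below 0 (-0.26).

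The pattern of weeks 2 to 4 ran along the GC content of the CDS. Across the 96.5% of RPF genes with a matched CDS, the RPF difference correlated with CDS GC at r = 0.19 in week 1 and at -0.65, -0.83 and -0.64 in weeks 2 to 4. In the lowest of 5 equal groups of genes by GC, with a median of 41.3%, the median RPF difference was 0.26, and 822 of 2152 genes were higher and 3 lower at an unadjusted p under 0.05. In the highest group, at 64.1%, it was -0.25 with 4 higher and 705 lower. Total RNA showed correlations of 0.07 to 0.27, of the opposite sign. Between uninduced shEIF2B1 and the same shCTRL libraries the RPF correlation was -0.63 to -0.75 in the 4 weeks, and 6255 genes (56.1%) were called. Between uninduced shEIF2B4 and shEIF2B1 it was 0.60, 0.54, -0.69 and 0.05, limma called 0 RPF genes (0%), and 459 had an unadjusted p under 0.05. After induction the RPF correlation between shEIF2B4 and shCTRL was 0.31 in week 1 and -0.12 to -0.27 in the others.

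**Figure D4:**
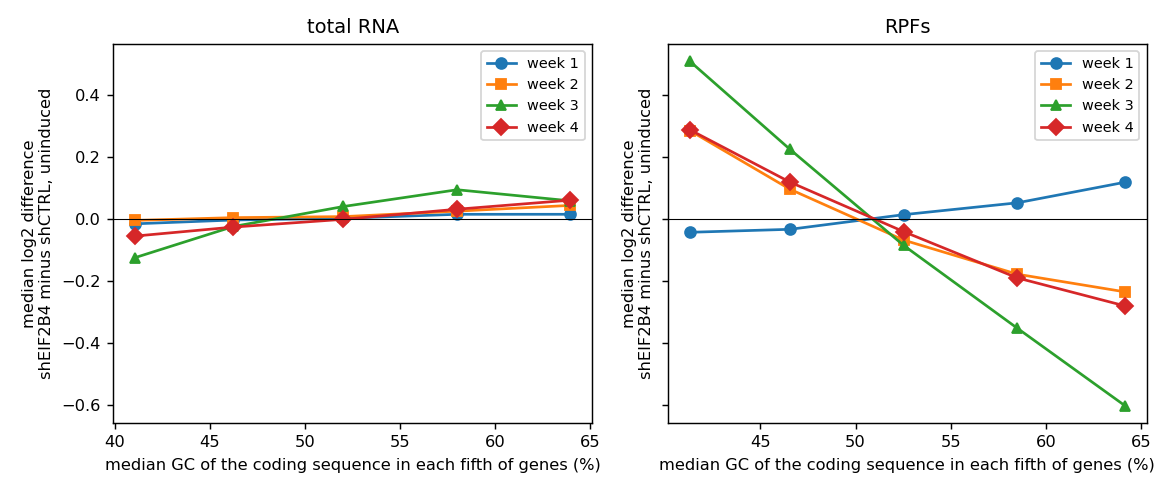
Median log2 difference between uninduced shEIF2B4 and shCTRL in 5 equal groups of genes by the GC content of their CDS (x axis, percent), with 1 line per week, in total RNA (left) and RPFs (right). In RPFs weeks 2, 3 and 4 fall from above 0 at low GC to below 0 at high GC, week 3 from 0.51 to -0.60, while week 1 rises from -0.04 to 0.12.

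Genes called in total RNA mostly had the same sign in RPFs. Of the 152 genes called higher in total RNA 112 were in the RPF table, and 75 of them were above 0 there, where 45.4% of all genes were. Of the 90 lower genes 59 were measured and 50 were below 0. Across all 10836 shared genes the differences in total RNA and RPFs correlated at r = -0.08 and rho = -0.15. Removing a trend over CDS length and GC from each week's differences, a step chosen after the data were seen, changed this to r = 0.29 over 10461 genes. The RPF calls then numbered 183, with 102 higher and 81 lower and 13 of the first 17 among them, and the total RNA calls 175, of which 161 were among the 242.

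After that step 35 genes were called in both tables in the same direction and 1 in opposite directions. The 21 higher genes included MAL2 (0.87 in RPFs), TSPAN13 (0.91), CLDN7 (0.77), NOS3 (0.73), EPCAM (0.68), CDH3 (0.62), ESRP1 (0.62), CDH1 (0.54) and ST14 (0.43), as well as DKK4 and TNC, which encodes the matrix protein tenascin C. Of the 11 colon epithelium markers in RPFs 3 were then called higher (EPCAM, CDH1 and CLDN7) and 1 lower, beside 0.948% and 0.753% of all genes. The lower one was CEACAM6, a cell adhesion molecule of epithelial cells, at -0.79 (adjusted p = 0.034), against -0.81 and an adjusted p of 0.11 before the step. The 14 lower genes included NECTIN3 (-0.66), ESM1 (-0.58), PSG1 (-0.54), PALM (-0.55), SPTLC3 (-0.46), KLF9 (-0.47), IGFBP7 (-0.40) and ABCA1 (-0.44). Before the step CLDN7 (0.66, adjusted p = 0.11), CDH1 (0.53, adjusted p = 0.12) and ESRP1 (0.70, adjusted p = 0.11) had missed the threshold in RPFs. CLDN7 stood at 7.28, 6.39, 6.68 and 5.99 in shCTRL RPFs and at 8.52, 6.87, 6.94 and 6.67 in shEIF2B4, higher in each week with overlapping groups. Of the 102 higher RPF genes 45 were also called higher after induction, beside 9.74% of all genes in that fit, and of the 81 lower genes 49 were called lower, beside 11.2%.

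**Figure D5:**
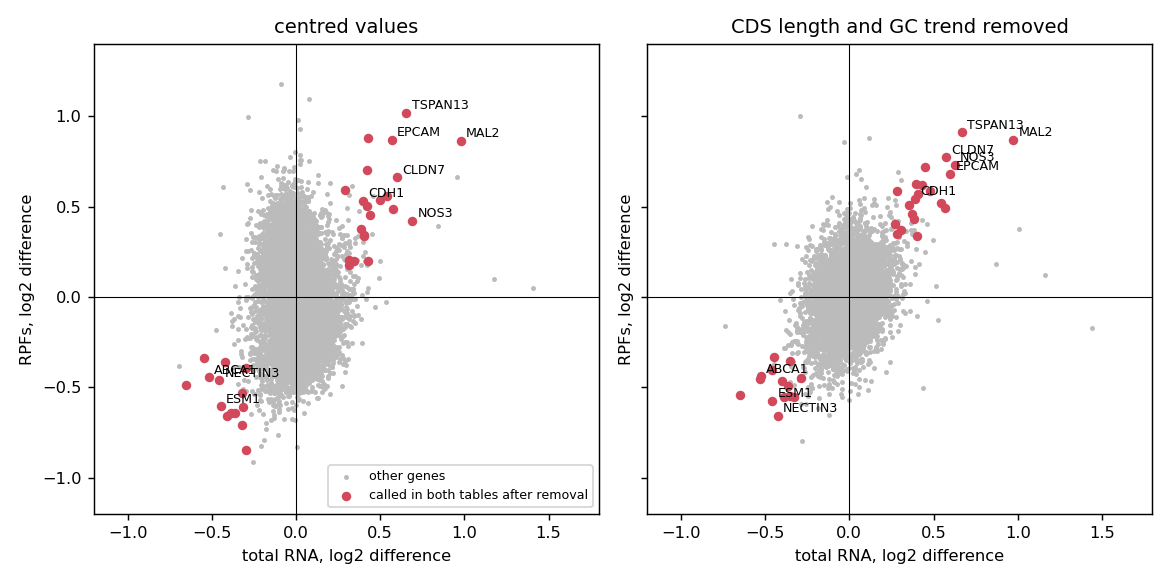
Each point is a gene with its uninduced log2 difference in total RNA (x axis) and RPFs (y axis), as centred values (left) and after a trend over CDS length and GC was removed (right), with genes called in both tables after the removal in red. The red genes lie in the upper right (TSPAN13, MAL2, EPCAM and CLDN7 farthest out) and lower left in both panels, and the grey cloud is narrower on the y axis on the right.

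Translation efficiency (TE), the log2 RPF minus the log2 total RNA value of a gene in the same week, was called for 8 of 10836 genes (0.0738%). Of these 7 were higher in shEIF2B4, CHURC1-FNTB (1.28), POLR2K (1.27), RP11-38C17.1 (1.04), PFDN1 (1.02), HMGN5 (0.92), NMI (0.87) and CEP83 (0.80), and LBX2 was lower (-0.84). The epithelial genes EPCAM and MAL2, called in both tables, were not called in log2 TE. Without week 1 the log2 TE calls numbered 4769, and without weeks 2, 3 and 4 they numbered 1, 5 and 3.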

How the data were processed

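Ribo-seq and total RNA libraries of uninduced shEIF2B4 and shCTRL SW480 cells were analysed, 4 of each kind and pool, with the other libraries used beside them. The authors removed rRNA, aligned reads with bowtie2 to GENCODE v38 protein-coding transcripts, quantified total RNA with RSEM, chose 1 transcript per gene, the most expressed, and counted RPFs of 28 to 33 nt on its CDS. Per the labels, replicate 3 joins 2 sequencing runs of 1 library, and cutadapt 1.18, SAMtools 1.9 and R 4.3.1 were used. The deposited values are log2 values that the authors made by the regularized log transformation of DESeq2, and all columns were mapped to samples by name. They hold no counts, so depth and counting error cannot be given, and the precision rests on the 4 weeks.

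Each library was centred on its median. Pools were compared with limma 3.58.1 (lmFit, and eBayes with a mean-variance trend) in R 4.3.3, on the 8 libraries of a comparison with the week as a block, two-sided, with the threshold at 0.1 after Benjamini-Hochberg adjustment. The change with induction is the product term of pool and DOX, taken as a contrast from a fit of all 24 libraries of a table. That fit includes the shEIF2B1 libraries and has the week as a block. Intervals are 95% intervals of the fit on 8 libraries. The series' design text describes the replicates as experiments of separate weeks marked by their number, and after each group's mean was removed, same-week libraries of both pools correlated across genes at 0.19 to 0.56 in total RNA and at 0.83, 0.65, -0.26 and 0.78 in RPFs. The replicates are separate weeks of 1 pool per hairpin, so p-values measure the spread between weeks and not between pools.

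Genes named are the eIF2B subunits, the genes that the study names, up to 12 rises and 12 falls per table that were called with 1 sign in 4 weeks, genes called in both tables or in log2 TE, and up to 4 called members per list, and genes outside this rule are said to be named after their values were seen. A few genes that the rule covers are not reported here. The members and lists were chosen with earlier results of these data known. CDS composition and positions come from GENCODE v29 on GRCh38, matched by transcript. The fits were tested on simulated data, with a change of 0.5 given to 200 genes. limma called 99.5% of these in total RNA and 61.5% in RPFs, with 25 and 17 false calls. A change of that size can therefore be missed in RPFs. The simulated noise was independent between genes and libraries and held no trend along GC. Alternatives were no block, values as deposited, another centring, no trend, robust eBayes, no genes of low level, all 24 libraries in one fit, a threshold of 0.05, each week left out and, added after the data were seen, removal of the CDS length and GC trend.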

Additional observations from a re-analysis of the deposited data

Results flagged for a closer look

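Some results stand out because the difference between the pools changed with induction, tested by the product of pool and DOX in limma. In total RNA the change was -0.51 for EIF2B4, 1.30 for MAL2, 1.14 for CLDN7, 0.45 for NT5DC4, 0.74 for NOS3, 0.54 for CDH1, -0.51 for DKK4, 1.14 for DDIT3 and 0.62 for PPP1R15A. In RPFs it was 1.04 for MAL2, 1.06 for CLDN7, 1.91 for NOS3, 1.22 for CDH1, 0.78 for ATF4, 1.75 for DDIT3 and 1.44 for PPP1R15A. DKK4 is the only one of these whose difference became smaller.

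Single libraries stood far from the other 3 of their group in 4 of 82 groups of 4 examined, by Dixon's criterion, which chance meets in about 1 in 20 groups. In total RNA these were EPCAM in shCTRL of week 3 (9.13) and DDIT3 in shCTRL of week 1 (9.37). In RPFs they were CLDN7 (8.52) in shEIF2B4 of week 1 and ATF4 in shCTRL of week 4 (8.78). Without week 1 the RPF difference of CLDN7 was 0.47.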

How the results depend on the processing

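The number of called genes depended on the processing, and the direction of the named genes mostly did not. In total RNA, 242 calls became 102 without the replicate block, 149 without the mean-variance trend, 10 without the lowest 25% of genes by level, 113 at a threshold of 0.05 and 7 to 493 without 1 week. With the values as deposited there were 277, of which 31.4% were higher, in place of 62.8%. In RPFs, 17 calls became 0 without the block, 1554 with the values as deposited (173 higher), 115 with centring on the mean of the more abundant genes, 29 without the trend, 2 without the lowest 25% of genes, 2049 with all 24 libraries in one fit, 7 at a threshold of 0.05, 183 with the CDS length and GC trend removed and 0 to 4699 without 1 week. In log2 TE, 8 calls became 0 without the block (769 at an unadjusted p under 0.05), 60 as deposited, 4 with the other centring, 0 without the lowest 25% of genes (1950 at an unadjusted p under 0.05), 2744 with all libraries, 1 at 0.05, 33 with the trend removed and 1 to 4769 without 1 week. The induced calls were 3411 in total RNA, with 2228 to 2950 without 1 week, and 1735 in RPFs, with 115 without the block, 3277 as deposited, 1124 at 0.05 and 687 to 3205 without 1 week. EIF2B4 in RPFs passed the threshold as deposited (-0.42), and ranged from -0.41 to -0.20 without 1 week. The cause of these shifts was not tested.

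Over 39 named results and 484 alternatives, 395 kept direction and side of the threshold, 42 kept the direction but were no longer called and 36 were newly called. In total RNA, CLDN7 stayed called in every alternative, the one without the lowest genes by level included. NOS3, NT5DC4 and ABCA1 stayed called in the other alternatives. They are among the lowest genes by level themselves, so the alternative without these genes could not test them. Without the block, EPCAM, MAL2, TSPAN13, LRRC8C and PALM in RPFs, and TSPAN13, DKK4 and PALM in total RNA, were no longer called. The 11 changes of sign were in RPFs and near 0: EIF2B1 at -0.069 as deposited, -0.047 with the trend removed and -0.042 to 0.093 without 1 week, ATF4 at -0.19 to 0.042 without 1 week, DDIT3 at 0.012 with the other centring, 0.018 with the trend removed and -0.22 to 0.19 without 1 week, PPP1R15A at -0.032 as deposited, and HNRNPD at -0.0034 to 0.38 without 1 week.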
